A study of Mus musculus with 8 samples.

Results

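The genes described here encode the nuclear subunits of oxidative phosphorylation, and membership was decided by gene symbol, not by measured level. The members were all entries whose symbol begins with Nduf followed by a, b, c, s or v and a digit, with Uqcr, with Cox and a digit from 4 to 8 or with Atp5, together with Sdha to Sdhd and Cyc1, leaving out 4 pseudogene names that hold -ps. This gave 84 of the 47493 genes in the table, namely 35 in complex I, 4 in complex II, 9 in complex III, 19 in complex IV and 17 in complex V. Members encoded in the mitochondrial genome were not analysed here, and neither was Cox4i1, so the comparison of nuclear with mitochondrial subunits was not made. By their known function Ndufa4 and Ndufa4l2 were counted with complex IV, and Atp5s and Atp5sl, which match the naming rule, are not subunits of the ATP synthase.

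The libraries came from 4 female C57BL/6 mice, 6 to 8 weeks old. Each had been inoculated intradermally with 200000 B16F10 cells, a mouse melanoma line, on day 0, and was given cyclophosphamide at 300 mg/kg on day 3. Pmel-1 cells, which are CD8+ T cells carrying a transgenic receptor for a melanoma antigen and the Thy1.1 marker, followed on day 5 (2000000 cells) with human IL-2 at 10000 IU daily for 3 days. Anti-CD4 antibody (clone GK1.5, 200 μg) was injected weekly from day 10. On day 25, endogenous Thy1.1-negative CD8+ T cells were purified from inguinal lymph nodes and spleen of each mouse and passed over a magnetic column. The cells held by an antibody to IL-18Rα formed the IL-18Rα hi-enriched fraction, and those that passed through formed the flow-through, which the labels call Control. All 8 libraries therefore share the tumour, the transferred cells and every treatment, and the 4 flow-through and 4 enriched libraries carry the same numbers. Equal numbers were taken to mark the same mouse, which the labels do not state. The comparison asks how the subunit genes differ between IL-18Rα hi cells and the remaining CD8+ T cells of the same animal.

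Oxidative phosphorylation passes electrons from NADH, through complex I, and from succinate, through complex II, to ubiquinone, then through complex III and cytochrome c to complex IV, where oxygen is reduced. Complexes I, III and IV pump protons across the inner mitochondrial membrane, and complex V, the ATP synthase, makes ATP as the protons return. Resting and memory CD8+ T cells are known to lean on this pathway, while effector cells add a strong glycolytic flux.

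Levels are given in FPKM, fragments per kilobase of transcript scaled to the mapped fragments of each library, as deposited. Il18r1, which encodes the receptor used for the selection, was at 22.2 to 37.2 FPKM in the flow-through and 107 to 116 FPKM in the enriched libraries. The T-cell identity genes were present in every library, but their geometric mean was 175 FPKM in flow-through replicate 1 against 279 to 351 FPKM in the other libraries. Markers of erythroid progenitors were detected although the cells were purified as CD8+ T cells. The summed level of the 14 erythroid markers was 1223 to 3873 FPKM in the flow-through and 278 to 1166 FPKM in the enriched fraction, it was highest in replicate 1 of each fraction, and none of the 14 was at 0 in all libraries. The 16 proliferation markers summed to 1376 to 2302 FPKM in the flow-through and 1879 to 2669 FPKM in the enriched fraction. Of 5 melanoma markers, 4 were at 0. In such bulk samples, fewer cells of a type and less RNA per cell cannot be told apart.

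Few of the subunit genes passed the test for a difference between the fractions. Of the 84 members, 79 had a mean of at least 1 FPKM and were tested with limma on log2(FPKM + 1). In this report a log2 difference is enriched minus flow-through on that scale, given ± its standard error. At an adjusted p under 0.05, 3 members were higher in the enriched fraction (Cox7a1, Cox5a and Ndufb7), 6 were lower (Cox6b2, Atp5g1, Atp5s, Sdhd, Ndufs7 and Ndufa10) and 70 were not called. The shares called were 3.80% higher and 7.59% lower among members, where 14.1% of all 12166 genes tested were higher and 13.7% lower. The median log2 difference was -0.06 over the members and -0.02 over all genes tested, and 50 of the 79 members had a negative value. Leaving out flow-through replicate 1 alone brought the median of the members to 0.01. Leaving out both libraries of mouse 1, with the mouse as a block, gave -0.04. Within mice 1 to 4 the medians of the members were -0.075, -0.032, -0.104 and -0.008. Those of all genes tested were -0.015, -0.009, -0.018 and -0.012.

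**Figure D1:**
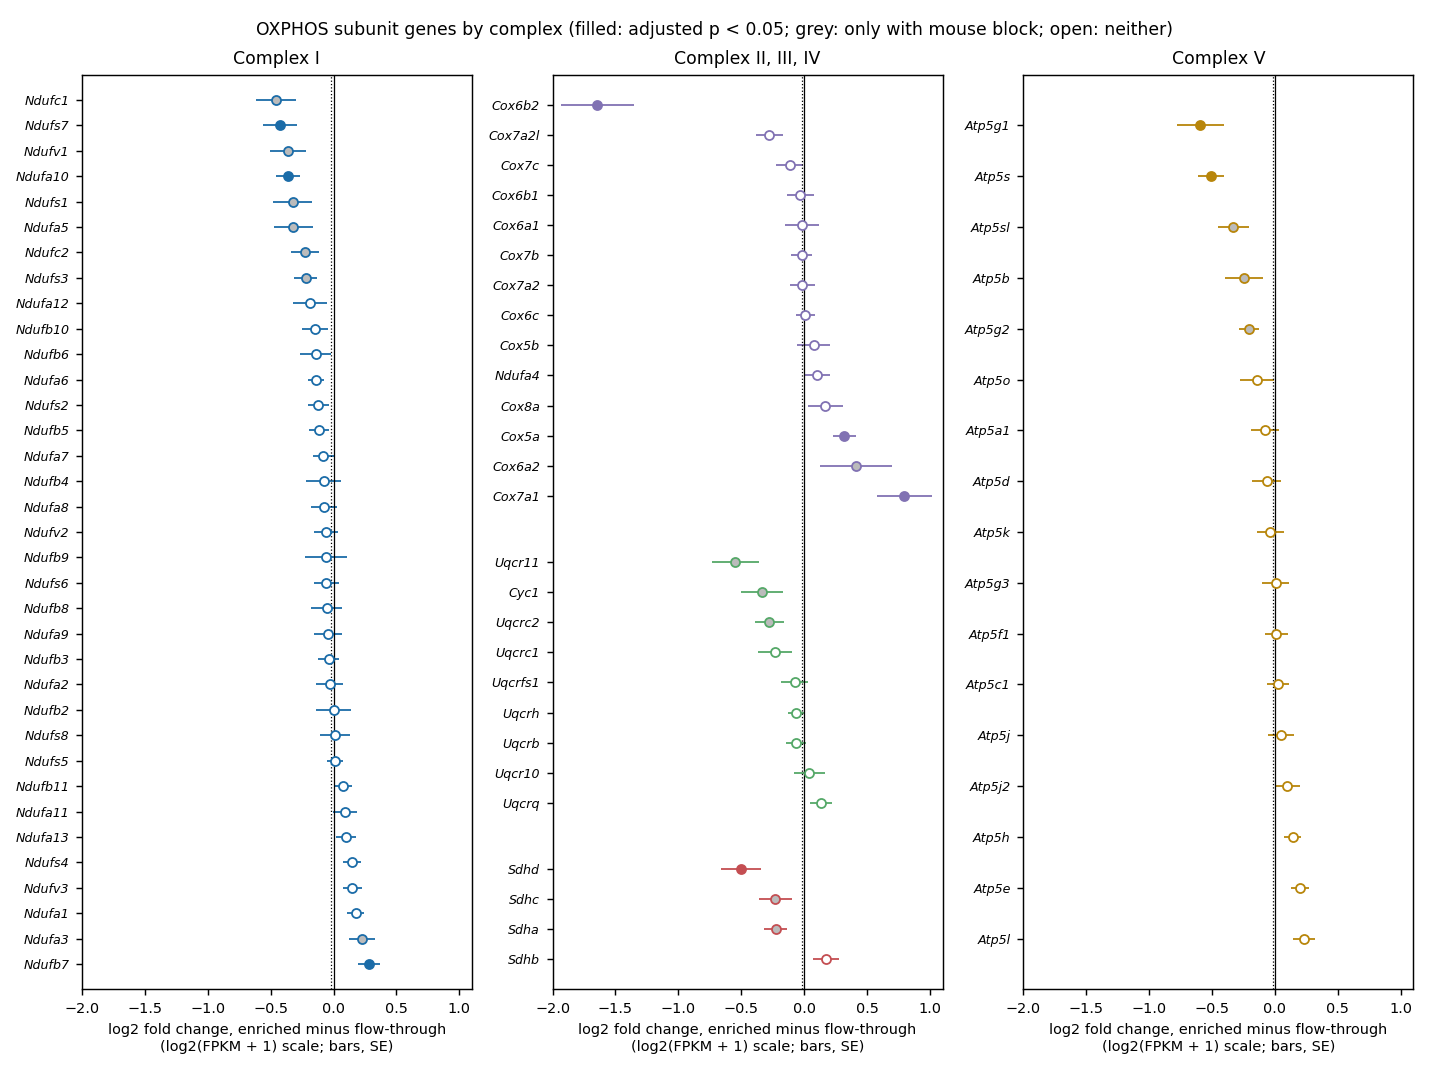
Log2 difference between the enriched and flow-through fractions (horizontal axis, log2(FPKM + 1) scale) for the 79 tested members, grouped by complex, with bars for the standard error of a fit to 4 libraries per fraction. Filled points passed the adjusted p threshold, grey points passed it only with the mouse as a block, the dotted line marks the median of all genes, and most points lie near 0 while Cox6b2 stands far to the left at -1.64.

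Summed over the 84 members, expression was 17004, 13832, 14957 and 13733 FPKM in flow-through replicates 1 to 4 and 15942, 13667, 13948 and 13324 FPKM in enriched replicates 1 to 4. Replicate 1 was highest in both fractions, and the fractions overlapped. The sum took between 1.92% and 2.59% of all FPKM in a library. Of the 79 tested members, 64 were highest in replicate 1 within the flow-through and 68 were highest in replicate 1 within the enriched fraction. Replicate 4 was the lowest in its fraction for 39 members of each. The T-cell identity genes set only flow-through replicate 1 apart (175 FPKM), with enriched replicate 1 at 351 FPKM beside 329 to 336 FPKM. Sums of erythroid, proliferation and globin markers were highest in replicate 1 of both fractions, and those of B cell and myeloid markers were lowest there. The part of all these markers in the member levels was not tested.

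Where equal numbers are taken as the same mouse, each member could also be followed within animals. With the mouse as a block, 5 members were higher and 20 lower at a limma adjusted p under 0.05, which is 6.33% and 25.3% of those tested, against 22.2% and 22.7% of all genes. In the higher direction the block added Ndufa3 and Cox6a2. In the lower direction it added Ndufc1, Ndufv1, Ndufs1, Ndufa5, Ndufc2, Ndufs3, Sdhc, Sdha, Uqcr11, Cyc1, Uqcrc2, Atp5sl, Atp5b and Atp5g2. Without mouse 1, the blocked fit called 4 members higher and 15 lower, where it called 2519 and 2475 of all 12166 genes tested. Levels were lower in the enriched fraction of all 4 mice for 29 members (30.6% of all genes did so) and higher for 15 (29.2% of all genes).

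**Figure D2:**
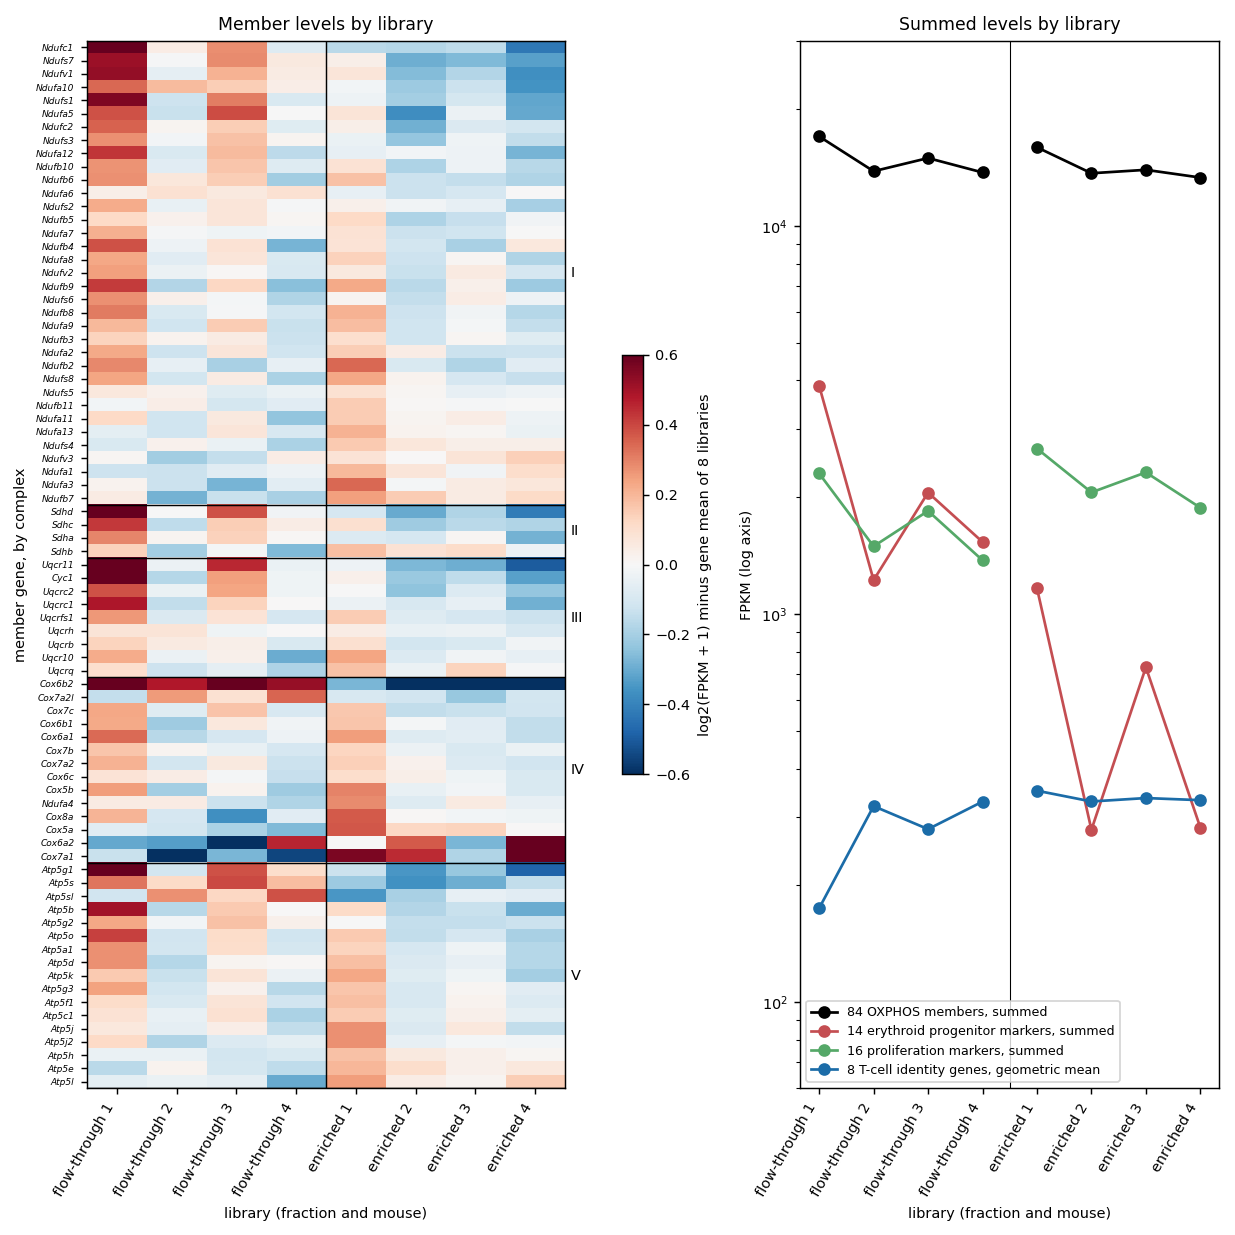
Left, level of each tested member in each of the 8 libraries as log2(FPKM + 1) minus the mean of that gene, by complex; right, summed FPKM of the members and of marker lists and the geometric mean of the T-cell identity genes, on a log axis. Replicate 1 is the reddest column in both fractions, with member sums of 17004 and 15942 FPKM, and the erythroid marker sum is lower in each enriched library than in the flow-through of the same mouse.

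Markers of other cells and states also differed by limma at an adjusted p under 0.05 (14.1% of all genes higher, 13.7% lower, and with the block 22.2% and 22.7%). Of 16 proliferation markers 5 were higher in the enriched fraction, or 11 with the block, but 2 without flow-through replicate 3, 9 without flow-through replicate 1 and 0 with T-cell scaling. Of 11 myeloid markers 4 were higher, or 8 higher and 1 lower with the block, but 1 without flow-through replicate 1 and 1 with T-cell scaling. Of 8 NK cell markers 6 were higher, or 7 with the block, and of 7 γδ T cell markers 3, or 6 with the block. Of 9 naive T cell markers 3 were lower, or 5 with the block and 6 without flow-through replicate 1. Of 14 erythroid progenitor markers 6 were lower, or 12 with the block, while leaving out flow-through replicate 3 gave 1 and leaving out enriched replicate 1 gave 8. No B cell or globin marker was called without the block (0 of 6 and 0 of 4), while with it 1 B cell marker was higher, 1 B cell marker was lower and 2 globin markers were lower, or 4 globin markers without mouse 1. Of all 12166 genes tested, 1155 were higher and 940 lower without flow-through replicate 3, and 1711 and 1588 without flow-through replicate 1. The numbers were 1560 and 1338 without enriched replicate 1, and 543 and 970 with T-cell scaling. The part of these markers in the differences of the members was not tested.

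Complex I, which oxidizes NADH, had 1 member higher, 2 lower and 32 not called, with a median log2 difference of -0.06. The shares were 2.86% higher and 5.71% lower, against 14.1% and 13.7% of all genes. Ndufs7, a core subunit that carries the iron-sulfur cluster next to the ubiquinone site, was at 177, 124, 151 and 129 FPKM in flow-through replicates 1 to 4 and at 127, 101, 103 and 98.7 FPKM in the enriched replicates. It was lower in the enriched library of every mouse, although the fractions overlapped because enriched replicate 1 exceeded flow-through replicate 2. Its log2 difference was -0.42 ± 0.13 (limma adjusted p = 0.0441). Ndufa10, an accessory subunit on the matrix face of the membrane arm, stood at 90.5, 81.0, 78.7 and 73.1 FPKM in the flow-through and at 70.2, 61.0, 64.8 and 55.2 FPKM in the enriched libraries. All 4 enriched values lay below all flow-through values, with a log2 difference of -0.36 ± 0.10 (limma adjusted p = 0.0264). The call for Ndufs7 was lost when flow-through replicate 1 or 3 or enriched replicate 2, 3 or 4 was left out (limma adjusted p = 0.065 to 0.113), and the call for Ndufa10 when flow-through replicate 3 or enriched replicate 2, 3 or 4 was left out (limma adjusted p = 0.0548 to 0.0729).

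Ndufb7, an accessory subunit of the membrane arm, went the other way. It was at 163, 129, 144 and 138 FPKM in the flow-through and at 187, 175, 164 and 171 FPKM in the enriched libraries. The enriched values all exceeded the flow-through values, the closest pair being enriched replicate 3 and flow-through replicate 1. The log2 difference was 0.28 ± 0.09 (limma adjusted p = 0.0445), and leaving out any library other than flow-through replicate 1 ended the call (limma adjusted p = 0.0657 to 0.104). Scaling the libraries by the T-cell identity genes turned its sign, to -0.05, and moved the median of all genes tested to -0.32.

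The 7 nuclear core subunits of complex I, which bind NADH, flavin, the iron-sulfur clusters and ubiquinone, had a median log2 difference of -0.22, and 6 of them were negative. Of these 7, 1 was lower without the block (14.3%, against 13.7% of all genes). With the block 4 were lower (57.1%, against 22.7% of all genes), namely Ndufs7, Ndufv1, Ndufs1 and Ndufs3. Ndufv1, which binds NADH and flavin, was at 72.6 to 109 FPKM in the flow-through and 58.3 to 79.2 FPKM in the enriched libraries (log2 difference -0.37 ± 0.14, limma adjusted p = 0.0882, with the block 0.00586). The 28 accessory subunits had a median of -0.06. Without the block 1 was higher and 1 lower (3.57% each, against 14.1% and 13.7% of all genes). With it 2 were higher and 4 lower (7.14% and 14.3%, against 22.2% and 22.7% of all genes). Ndufs4, Ndufa1 and Ndufb7 had every enriched value above every flow-through value, and Ndufc1, Ndufa10, Ndufs3 and Ndufa6 every enriched value below (over all genes, 16.4% separated upward and 15.9% downward). The most abundant member of this complex per length was Ndufb7, followed by Ndufa7, which was at 151 to 178 FPKM in the flow-through and 140.2 to 163 FPKM in the enriched libraries and was not called.

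Complex II, or succinate dehydrogenase, had 1 of its 4 members lower (25%, against 13.7% of all genes) and values in both directions. Sdha, the flavoprotein that oxidizes succinate, was at 144, 119, 129 and 118 FPKM in flow-through replicates 1 to 4 and at 111, 109, 118 and 96.1 FPKM in the enriched replicates. Sdhb, the iron-sulfur protein, was at 136, 107, 123 and 103 FPKM in the flow-through and at 140.0, 131, 133 and 121 FPKM in the enriched libraries. Sdha was therefore lower and Sdhb higher in the enriched library of each of the 4 mice, with overlap between the fractions for both. Sdhc, one of the membrane anchors, was at 77.6, 51.8, 63.9 and 59.5 FPKM in the flow-through and at 61.8, 49.5, 51.5 and 50.8 FPKM in the enriched libraries. Sdhd, the other anchor, was at 247, 158, 206 and 156 FPKM in the flow-through and at 147, 128, 139 and 118 FPKM in the enriched libraries. Both anchors were lower in the enriched library of every mouse, and for Sdhd the fractions did not overlap.

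The log2 differences were -0.50 ± 0.16 for Sdhd (limma adjusted p = 0.0437), -0.23 ± 0.13 for Sdhc (0.214), -0.23 ± 0.09 for Sdha (0.102) and 0.17 ± 0.10 for Sdhb (0.235). With the mouse as a block, Sdhd, Sdha and Sdhc were lower (limma adjusted p = 0.00436, 0.0364 and 0.0345) and Sdhb did not pass (0.078). The share lower was thus 75%, against 22.7% of all genes. Without mouse 1 the blocked fit called Sdhd lower (limma adjusted p = 0.00572) and Sdhb higher (0.0387), and Sdha and Sdhc did not pass (0.0722 and 0.0726). The difference between Sdhb and the other subunits was not tested. The call for Sdhd was lost when flow-through replicate 1 or 3 or any of the enriched libraries was left out (limma adjusted p = 0.0547 to 0.113). T-cell scaling made the value of Sdhb negative, at -0.16, where the median of all genes tested moved to -0.32.

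Complex III, which passes electrons from ubiquinol to cytochrome c, had 0 of 9 members called without the block (14.1% of all genes were higher and 13.7% lower). At an unadjusted limma p under 0.05, 2 of the 9 were lower, as were 2594 of all 12166 genes tested. With the block 3 were lower (33.3%, against 22.7% of all genes). Uqcrh, the hinge protein and the most abundant of these genes, ranged from 370 to 398 FPKM in the flow-through and from 352 to 388 FPKM in the enriched libraries, and Uqcr10, a small accessory subunit, from 234 to 337 FPKM and from 272 to 341 FPKM. These ranges overlapped in both cases. Uqcr11, a small accessory subunit, was at 377, 224, 314 and 223 FPKM in the flow-through and at 224, 190.3, 187 and 162 FPKM in the enriched libraries. It was lower in the enriched library of all 4 mice, with flow-through replicates 1 and 3 well above the others. Its log2 difference was -0.55 ± 0.18 (limma adjusted p = 0.0574, with the block 0.00581). Cyc1, cytochrome c1, showed the same pattern in all 4 mice with a log2 difference of -0.33 ± 0.17 (limma adjusted p = 0.167, with the block 0.0261), and so did Uqcrc2, a core protein, at -0.28 ± 0.11 (0.1, with the block 0.0127).

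Complex IV, cytochrome c oxidase, held both the largest decrease and 2 of the 3 increases, and its median log2 difference was 0.00 (-0.0032). Of its 14 tested members, 14.3% were called higher and 7.14% lower, against 14.1% and 13.7% of all genes. Cox6b2 encodes the isoform of subunit VIb that is known mainly from testis, beside the widely expressed Cox6b1. It was at 99.4, 43.7, 48.6 and 45.1 FPKM in flow-through replicates 1 to 4 and at 25.5, 14.99, 17.6 and 12.7 FPKM in enriched replicates 1 to 4. Replicate 1 was highest in each fraction, and every enriched value was below every flow-through value. The means were 59.2 ± 26.9 FPKM and 17.7 ± 5.56 FPKM (SD, n = 4), a ratio of 3.35. The log2 difference was -1.64 ± 0.29 (limma adjusted p = 0.00578, with the block 0.000212), and it passed the threshold when any single library was left out, with the largest limma adjusted p at 0.0212.

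Cox6b1 was not called. Its level was 398, 293, 355 and 335 FPKM in the flow-through and 381, 337, 324 and 307 FPKM in the enriched libraries, with full overlap (log2 difference -0.03 ± 0.11, limma adjusted p = 0.857). Cox6b2 thus made up 19.99%, 12.98%, 12.04% and 11.9% of the FPKM of both isoforms in the flow-through and 6.27%, 4.26%, 5.14% and 3.98% in the enriched libraries.

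Cox5a, a matrix-side subunit of the oxidase, was at 233, 227, 214 and 203 FPKM in the flow-through and at 317, 267, 269 and 245 FPKM in the enriched libraries. No value overlapped, and the log2 difference was 0.32 ± 0.09 (limma adjusted p = 0.0353). Leaving out flow-through replicate 3 or 4 or enriched replicate 1, 2 or 3 ended the call (limma adjusted p = 0.0642 to 0.0928). T-cell scaling brought the value of Cox5a to -0.01 and the median of all genes tested to -0.32. Cox7a1, the heart and skeletal muscle isoform of subunit VIIa, was near the lower limit of the filter, at 1.26, 0.60, 1.05 and 0.698 FPKM in the flow-through and at 2.68, 2.38, 1.19 and 3.21 FPKM in the enriched libraries. It was higher in the enriched library of every mouse, but enriched replicate 3 lay within the flow-through range. Its log2 difference was 0.80 ± 0.22 (limma adjusted p = 0.0283), and the call was lost without any 1 of 6 libraries, those other than flow-through replicate 1 and enriched replicate 3 (limma adjusted p = 0.057 to 0.0767).

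In the other isoform pairs the common form held nearly all of the FPKM in both fractions. Cox7a2, the common form of subunit VIIa, was at 146 to 185 FPKM in the flow-through and 148 to 177 FPKM in the enriched libraries, so Cox7a1 made up at most 2.13% of that pair. Cox6a1 was at 377 to 535 FPKM in the flow-through and 382 to 504 FPKM in the enriched libraries, while its muscle counterpart Cox6a2 was at 0.542 to 2.31 FPKM and 0.993 to 3.00 FPKM (log2 difference 0.41 ± 0.29, limma adjusted p = 0.306, with the block 0.0344). Cox7a2l has been described as a factor that joins complexes III and IV into supercomplexes, a role not measured in these mice. Cox7a2l was at 313, 413, 368 and 440.4 FPKM in the flow-through and at 323, 319, 295 and 319.8 FPKM in the enriched libraries. It was lower in 3 of 4 mice and higher in mouse 1 (log2 difference -0.28 ± 0.11, limma adjusted p = 0.0908, with the block 0.0505). It passed with T-cell scaling (-0.61, limma adjusted p = 0.0356), which moved the median of all genes tested to -0.32. It also passed in the blocked fit without mouse 1 (-0.38, limma adjusted p = 0.00434). Cox8a, the most abundant member of complex IV, was at 381 to 568 FPKM and 484 to 635 FPKM, and Ndufa4 at 241 to 283 FPKM and 258 to 333 FPKM, with neither called. Cox7b was at 109 to 132 FPKM and 109.8 to 128 FPKM and was likewise not called. Cox7b2, Cox8b and Cox8c were listed at 0 in every library, and Cox4i2 and Ndufa4l2 stayed below 1 FPKM throughout.

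**Figure D3:**
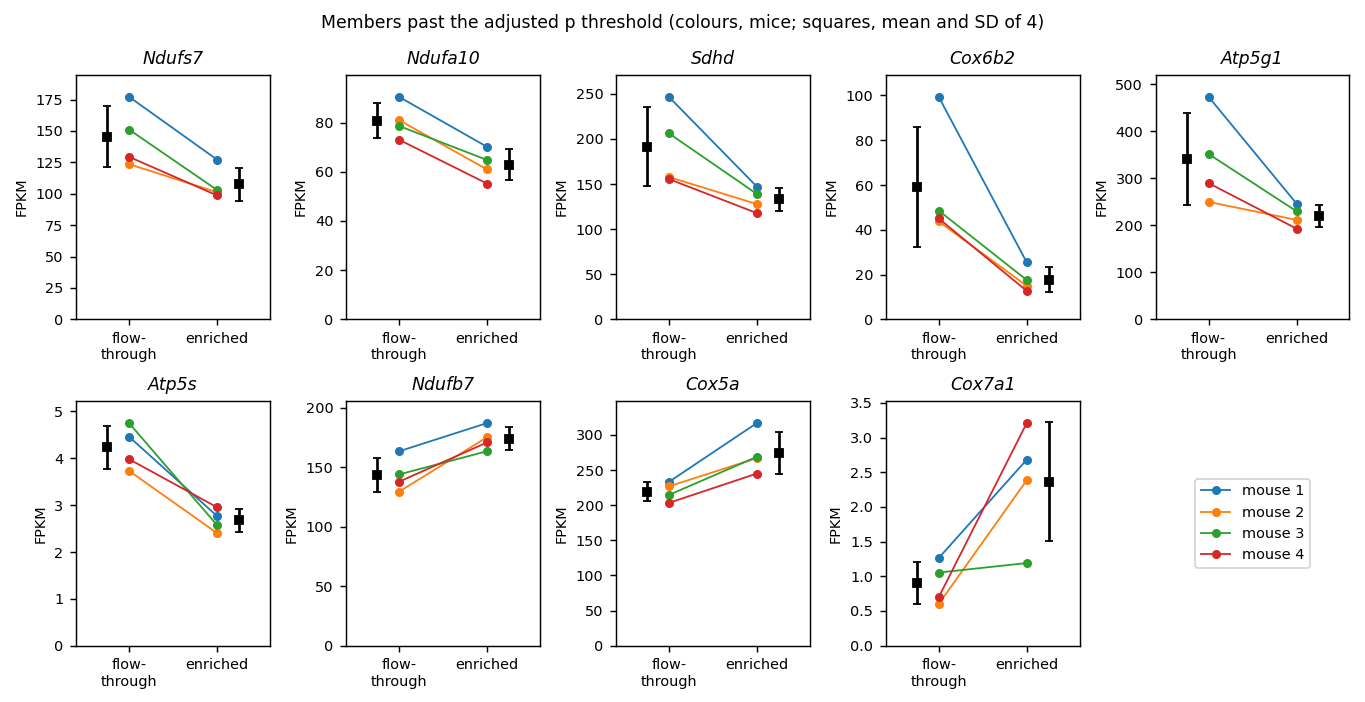
FPKM of the 9 members past the limma adjusted p threshold in the flow-through and enriched library of each mouse (coloured lines), with squares and bars for the mean and SD of 4 libraries. The first 6 panels fall and the last 3 rise in all 4 mice, and mouse 1 has the highest flow-through value in 8 of the 9 panels, including Cox6b2 at 99.4 FPKM.

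Complex V, the ATP synthase, had 2 members lower (11.8%, against 13.7% of all genes) and none higher, with a median log2 difference of -0.04. With the block 5 were lower (29.4%, against 22.7% of all genes) and none higher. Atp5g1, Atp5g2 and Atp5g3 encode the same mature subunit c, which forms the proton-driven ring, behind different import sequences. Atp5g1 was at 474, 250.0, 352 and 290.0 FPKM in flow-through replicates 1 to 4 and at 246, 212, 230.0 and 193 FPKM in the enriched replicates. Atp5g2 was at 479, 403, 461 and 417 FPKM in the flow-through and at 407, 369, 370.0 and 373 FPKM in the enriched libraries. For Atp5g1 every enriched value was below every flow-through value, and for Atp5g2 each mouse was lower in the enriched fraction with some overlap. Atp5g3 was at 561, 441, 484 and 424 FPKM in the flow-through and at 533, 445, 479 and 453 FPKM in the enriched libraries, with no order between the fractions.

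The log2 differences were -0.59 ± 0.19 for Atp5g1 (limma adjusted p = 0.0449), -0.21 ± 0.08 for Atp5g2 (0.0833, with the block 0.037) and 0.01 ± 0.11 for Atp5g3 (0.975). Of the FPKM of all 3 genes, Atp5g1 made up 22.8% to 31.3% in the flow-through and 18.9% to 21.3% in the enriched libraries. Atp5g3 made up 37.1% to 40.3% and 43.4% to 44.9%, while Atp5g2 made up 31.6% to 36.9% and 34.3% to 36.6%. The call for Atp5g1 was lost when flow-through replicate 3 or 4 or any enriched library was left out (limma adjusted p = 0.0527 to 0.115). These genes resemble each other and have processed copies, so the division of reads among them is uncertain.

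**Figure D4:**
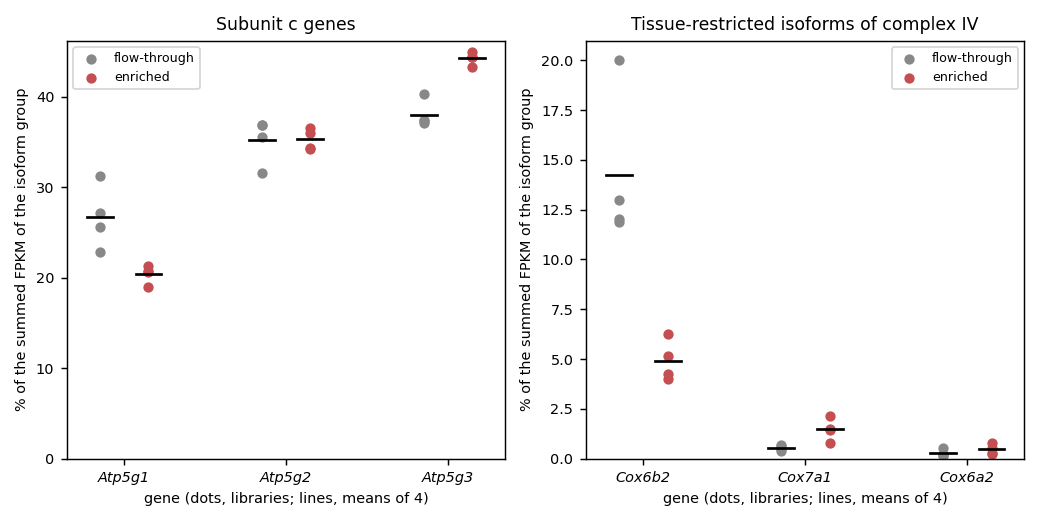
Share of each gene in the summed FPKM of its isoform group, for the 3 subunit c genes (left) and for 3 tissue-restricted complex IV isoforms beside their common partner (right), with dots for the libraries and lines for the means of 4. The Cox6b2 share lies between 11.9% and 19.99% in the flow-through and between 3.98% and 6.27% in the enriched libraries, and the Atp5g1 and Atp5g3 shares separate in opposite directions.

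Of the 3 subunit c genes, only Atp5g1 was called without the block, and a difference among them was not tested. The 100 bases upstream of the RefSeq start are given for these 3, for the member with the largest difference and for Sdhd. They are RefSeq sequences of build GRCm38.p6, written 5′ to 3′ on the strand of the gene and taken nearest to that start outside the gene's own GENCODE exons, which put the windows of Atp5g1 and Atp5g2 at a distance of 39 and 80 bases from it. The Atp5g2 window lies within the gene as GENCODE annotates it, which starts farther upstream, and outside its exons. All 5 genes lie on the minus strand, and capitals mark a match to a searched motif.
Cox6b2, chr7:4753095-4753194: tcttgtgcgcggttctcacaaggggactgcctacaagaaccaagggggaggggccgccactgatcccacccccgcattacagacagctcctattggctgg
Atp5g1, chr11:96075671-96075770: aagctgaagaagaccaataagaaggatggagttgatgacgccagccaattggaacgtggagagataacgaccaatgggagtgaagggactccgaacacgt
Atp5g2, chr15:102671128-102671227: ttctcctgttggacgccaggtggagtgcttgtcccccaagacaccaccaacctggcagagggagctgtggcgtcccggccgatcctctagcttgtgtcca
Atp5g3, chr2:73911327-73911426: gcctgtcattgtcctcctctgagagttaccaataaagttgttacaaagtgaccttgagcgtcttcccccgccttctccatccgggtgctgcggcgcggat
Sdhd, chr9:50603850-50603949: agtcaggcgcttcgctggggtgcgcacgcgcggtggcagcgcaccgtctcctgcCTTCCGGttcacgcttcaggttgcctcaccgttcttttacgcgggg
The motifs were the core of the NRF1 site (CGCATGCG), an ETS core of the kind GABP binds (CCGGAAG) and a YY1 core (AAGATGGC), factors known for their sites in respiratory chain promoters. Each was searched on both strands in windows of 300 bases around the start of 64 members and 8742 tested genes that had one. The NRF1 core was found in 14.1% of the members and 4.61% of all tested genes, the YY1 core in 14.1% and 5.66%, and the ETS core in 25% and 21.6%. Atp5g2 held an NRF1 core and Sdhd an ETS core within that window, while Cox6b2, Atp5g1 and Atp5g3 held none of the 3 motifs. A match describes these letters only.

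In the catalytic head, the stalk and the membrane parts of the synthase no member was called without the block, apart from the subunit c genes above. Atp5b, the catalytic β subunit and the most abundant member per length, was at 1025, 644, 806 and 724 FPKM in the flow-through and at 783, 639.9, 659 and 588 FPKM in the enriched libraries. It was lower in the enriched library of every mouse, by the widest margin in mouse 1 (log2 difference -0.25 ± 0.15, limma adjusted p = 0.249, with the block 0.0459). Atp5a1, the α subunit, was at 482 to 630.4 FPKM and 462 to 572 FPKM and was not called. Atp5e, Atp5h and Atp5l, small subunits of the head, the peripheral stalk and the membrane part, had every enriched value above every flow-through value. Over all genes, 16.4% separated upward in this way. The log2 differences of these subunits were 0.20, 0.14 and 0.23 and did not pass (limma adjusted p = 0.0744, 0.142 and 0.0873).

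Atp5s, the low-expressed coupling factor B that the naming rule brings in, was at 4.46, 3.73, 4.75 and 3.98 FPKM in the flow-through and at 2.77, 2.40, 2.57 and 2.95 FPKM in the enriched libraries. No value overlapped, and the log2 difference was -0.51 ± 0.10 (limma adjusted p = 0.0091). Its call, like that of Cox6b2, remained when any single library was left out, with a largest limma adjusted p of 0.0329. Atp5sl was at 27.9 to 39.8 FPKM and 23.5 to 29.2 FPKM (log2 difference -0.33 ± 0.12, limma adjusted p = 0.074, with the block 0.0141). Without these 2 genes, 3 members were higher and 5 lower of 77.

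Genes that serve the respiratory chain without being part of it were described from lists written out by gene name, not by a symbol rule. Of 17 genes of pyruvate dehydrogenase and the TCA cycle, which supply NADH and succinate, 6 were lower and none higher. The share lower was 35.3%, against 13.7% of all genes. None was higher at an unadjusted limma p under 0.05, where 2433 of all 12166 genes tested were. The median log2 difference was -0.29. With the block 13 were lower (76.5%, against 22.7% of all genes). Unblocked, the count was 3 without flow-through replicate 3, 7 without flow-through replicate 1 and 3 after division by the table's sum. The same settings called 940, 1588 and 1288 of all 12166 genes tested lower, against 1664 without these changes. The largest were Idh2, the mitochondrial NADP isocitrate dehydrogenase (-0.73 ± 0.10, limma adjusted p = 0.00203), Suclg2, a succinyl-CoA ligase subunit (-0.67 ± 0.10, 0.00271), and Dlat, the acetyltransferase of pyruvate dehydrogenase (-0.56 ± 0.12, 0.0121). Idh2 was at 64.3, 74.8, 63.5 and 67.0 FPKM in the flow-through and at 37.8, 47.8, 37.5 and 38.5 FPKM in the enriched libraries. The fractions were clearly apart for Idh2, with replicate 2 the highest in each.

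Of 15 genes for the upkeep and transcription of mitochondrial DNA, 6 were lower (40%, against 13.7% of all genes) and none higher. With the block 7 were lower (46.7%, against 22.7% of all genes). All 15 values were negative, where 52.0% of all genes tested were, and the median was -0.30. Unblocked, the count was 4 without flow-through replicate 3 and 4 after division by the table's sum. Of all 12166 genes tested, 940 and 1288 were lower in these settings. Tefm, the mitochondrial elongation factor, had a log2 difference of -0.72 ± 0.11 (limma adjusted p = 0.00309), Lrpprc, which stabilizes mitochondrial mRNA, of -0.63 ± 0.15 (0.0157), and Top1mt, the mitochondrial topoisomerase, of -0.60 ± 0.10 (0.00417). Tfam, which packages mitochondrial DNA, was at 30.7 to 40.9 FPKM in the flow-through and 29.5 to 41.3 FPKM in the enriched libraries and was not called. Of the 7 tested regulators of mitochondrial biogenesis, 2 were lower (28.6%, against 13.7% of all genes). They were the coactivators Pprc1 (-0.66 ± 0.17, limma adjusted p = 0.0211) and Ppargc1b (-0.56 ± 0.17, 0.0405). Nrf1, Gabpa and Esrra had values of 0.18, 0.10 and 0.05 that did not pass. The calls for Pprc1 and Ppargc1b were lost when flow-through replicate 3 or enriched replicate 2, 3 or 4 was left out, and that for Ppargc1b also without flow-through replicate 4 or enriched replicate 1 (limma adjusted p = 0.0519 to 0.0989 for both genes).

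Assembly factors, which build the complexes, had 1 of 49 higher and 9 lower (18.4%, against 13.7% of all genes), with a median of -0.14. With the block 14 were lower (28.6%, against 22.7% of all genes), so both shares were near the background. Unblocked, the count was 4 without flow-through replicate 3, where 940 of all 12166 genes tested were lower. Ndufaf4, a complex I assembly factor, was at 17.4, 13.7, 19.9 and 13.6 FPKM in the flow-through and at 7.93, 7.21, 9.15 and 8.58 FPKM in the enriched libraries. The fractions did not overlap, and the log2 difference was -0.88 ± 0.13 (limma adjusted p = 0.00327). Coa7, a complex IV factor (-0.75 ± 0.20, limma adjusted p = 0.0264), and Bcs1l, which inserts the Rieske protein into complex III (-0.73 ± 0.14, 0.00805), were also lower, while the complex I factor Tmem126a was the 1 higher gene (0.44 ± 0.10, 0.015). The call for Coa7 was lost without flow-through replicate 1 or 3 or enriched replicate 1, 2 or 4 (limma adjusted p = 0.0525 to 0.0723).

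Among 12 carriers and related genes, 2 were lower (16.7%, against 13.7% of all genes) and 1 higher (8.33%, against 14.1%). With the block 6 were lower (50%, against 22.7% of all genes). Atpif1, the inhibitor of the ATP synthase (-0.88 ± 0.22, limma adjusted p = 0.0212), and Cycs, cytochrome c (-0.35 ± 0.08, 0.0127), were lower. Ucp2, an inner-membrane carrier of the uncoupling protein family, was at 602, 670.0, 584 and 618 FPKM in the flow-through and at 776, 783, 769 and 827 FPKM in the enriched libraries. Every enriched value was above every flow-through value, with a log2 difference of 0.35 ± 0.07 (limma adjusted p = 0.00894). The call for Atpif1 was lost without flow-through replicate 3 or enriched replicate 2, 3 or 4 (limma adjusted p = 0.0505 to 0.0627). The erythroid progenitor markers described above also had calls in the lower direction, and their part in the differences of these lists was not tested. With T-cell scaling, 970 of all 12166 genes tested were lower. On that scaling, 2 of 17 TCA cycle genes, 2 of 15 of mitochondrial DNA upkeep and 4 of 49 assembly factors were lower. Of the biogenesis regulators 1 of 7 was lower, and of the carriers 0 of 12.

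**Figure D5:**
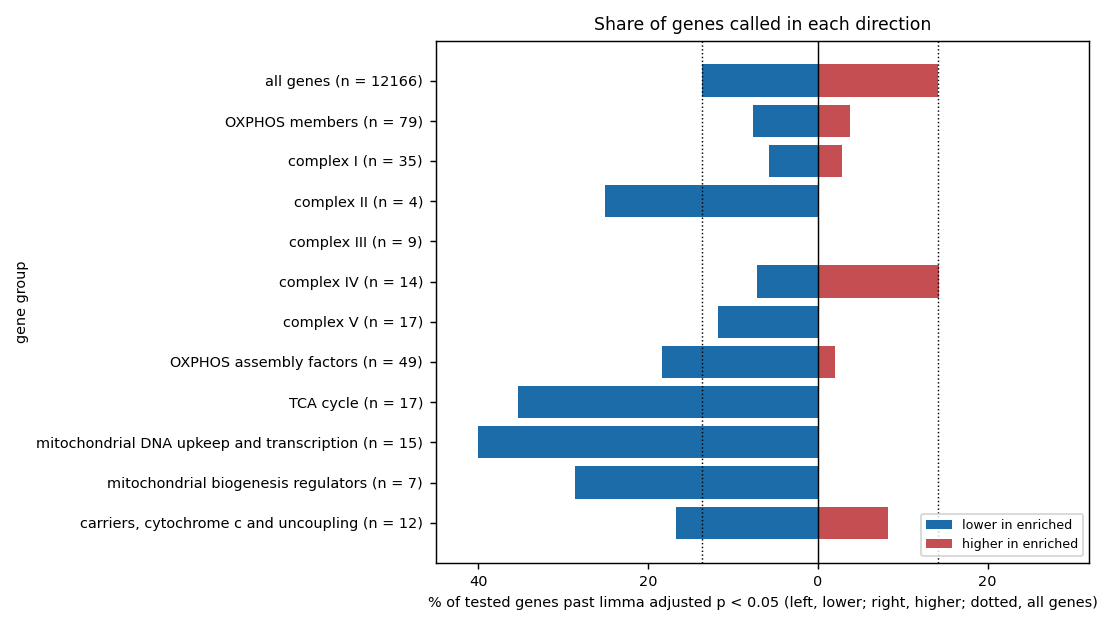
Percent of tested genes past a limma adjusted p of 0.05 in each group, with bars to the left for genes lower and to the right for genes higher in the enriched fraction and dotted lines at the shares of all genes. The members stand at 7.59% lower and 3.80% higher, inside both dotted lines (13.7% and 14.1%), while the TCA cycle genes reach 35.3% lower and the genes of mitochondrial DNA upkeep 40% lower.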

How the data were processed

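RNA was measured in 4 flow-through and 4 IL-18Rα hi-enriched libraries, with groups and numbers taken from the labels. Poly(A) RNA libraries were sequenced as stranded paired ends of 150 bases. The authors filtered reads by quality, mapped them to mm10 with TopHat (version not given in the sources used here) and deposited FPKM values from Cufflinks 2.1.1, corrected for multi-mapped reads. Strand use and the annotation release were not given in the sources used here, so overlapping genes and close paralogs are uncertain. From long genes (1500 bases or more, 1 transcript) listed under 0.2 FPKM, the depth of each library was estimated to lie between 14.8 and 17.8 (in units of 1e6 fragments), and no counting interval was given.

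FPKM values plus 1 were log2-transformed, and the fractions were compared in R 4.3.3 by limma 3.58.1 with a variance trend and no block. The 12166 genes averaging 1 FPKM or more entered, with Benjamini-Hochberg adjustment over all of them. The procedure was tested on simulated data. A fold change on this scale understates that of low genes. Each animal gave both fractions, and equal numbers were taken to mark the same mouse, which the labels do not state. Deviations of same-numbered libraries correlated at 0.66, 0.59, 0.31 and 0.47. Libraries of unequal number reached 0.41 (enriched replicate 4 with flow-through replicate 2). The blocked fit is therefore given for the members and lists described where it changes their calls. Alternatives were another pseudocount, other filters, 3 scalings, the mouse block and leaving out each library; the blocked fit without mouse 1 was chosen after seeing the data. Members and lists were chosen with earlier results of these data known. Described with values were the 4 succinate dehydrogenase genes, in every other complex the 2 most abundant members and up to 2 called in each direction, isoforms with their partners, and the 3 largest calls of each list. Ndufs4, Ndufv1, Ndufc1, Ndufs3, Ndufa6, Ndufa1, Uqcr11, Cyc1, Uqcrc2, Atp5e, Atp5h, Atp5l, Tfam, Nrf1, Gabpa, Esrra and Tmem126a were named after their values were seen. A longer form of the NRF1 core was counted first, and the shorter form given here was chosen after those counts were seen. Of the table's running numbers, 236 were not used here, and 98.9% of identifiers were in GENCODE M21.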

Additional observations from a re-analysis of the deposited data

Results flagged for a closer look

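In 7 of the 58 groups of 4 libraries examined, the gap of 1 library to its nearest neighbour exceeded the 95% limit of Dixon's test, where chance gives about 2.9 such groups. Of the 7 libraries, 6 belonged to mouse 1. Ndufs7 was at 127 FPKM in enriched replicate 1 against 98.7 to 103 FPKM in the other enriched libraries. Ndufa7 was at 178 FPKM in flow-through replicate 1 against 151 to 153 FPKM. Sdhc was at 61.8 FPKM in enriched replicate 1 against 49.5 to 51.5 FPKM. Cox6b2 was at 99.4 FPKM in flow-through replicate 1 against 43.7 to 48.6 FPKM, and without that library its log2 difference was -1.37. Cox8a was at 635 FPKM in enriched replicate 1 against 484 to 494 FPKM. Atp5g2 was at 407 FPKM in enriched replicate 1 against 369 to 373 FPKM. The exception was Cox7a2l, which was lowest in enriched replicate 3, at 295 FPKM against 319 to 323 FPKM.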

How the results depend on the processing

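Against 3 members higher and 6 lower, a pseudocount of 0.1 called 3 and 6 and a minimum of 5 FPKM called 2 and 5 (Cox7a1 and Atp5s were not tested there). Testing every gene with a value above 0 called 0 and 3 (more genes tested; the carriers' median moved to -0.14), median-of-ratios scaling 2 and 3, and division by the table's sum 1 and 2. T-cell scaling called 0 and 4, of which Cox6b2 and Atp5s were among the 6 and Cox7a2l was not, with 543 higher and 970 lower of all genes; it moved the median of all genes to -0.32, of the members to -0.39, of complexes I to V to -0.39, -0.56, -0.41, -0.33 and -0.37, and of assembly factors, TCA cycle, mitochondrial DNA, biogenesis and carrier genes to -0.47, -0.61, -0.62, -0.26 and -0.56. It reversed Atp5g3 (-0.33), Cox5a (-0.013), Cox8a (-0.16), Ndufa4 (-0.22), Ndufb7 (-0.050), Sdhb (-0.16) and Uqcr10 (-0.29). The mouse block gave 5 and 20 members and 2705 and 2763 of all genes. The block without mouse 1 gave 15 members lower, reversed Cox6a1 (0.0025) and Cox7a2 (0.0012), and moved the biogenesis median to -0.042. Leaving out 1 library gave 0 to 3 members higher and 2 to 7 lower, 1124 to 1802 and 940 to 1781 of all genes, and medians of -0.11 to 0.012 (members), -0.12 to 0.010 (complex I), -0.14 to -0.051 (III), -0.044 to 0.070 (IV), -0.12 to 0.027 (V) and -0.043 to 0.10 (biogenesis). Values near 0 changed sign in it: Atp5g3 (-0.049 to 0.086), Cox6a1 (-0.11 to 0.090), Cox6b1 (-0.11 to 0.041), Cox7a2 (-0.066 to 0.051), Cox7b (-0.065 to 0.034) and Uqcr10 (-0.051 to 0.12). Cox6b2 kept its call under every alternative run, and Atp5s under every one in which it was tested. Where calls were lost under a scaling, the cause was not tested. Alternatives for mitochondrially encoded genes were not run. The depth per library is only estimated, which limits what can be said of Cox7a1, Cox6a2 and other members near 1 FPKM.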

Other observations

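Subunits of these complexes with symbols outside the naming rule were looked at after the other values were seen. Ndufab1, the acyl carrier subunit of complex I, was at 95.5, 63.0, 82.4 and 56.1 FPKM in flow-through replicates 1 to 4 and at 55.6, 48.1, 60.3 and 46.8 FPKM in the enriched replicates. It was lower in the enriched library of every mouse with overlap between the fractions, and its log2 difference was -0.46 ± 0.17 (limma adjusted p = 0.0747, with the block 0.00782). Usmg5, a small ATP synthase subunit, was at 223 to 289 FPKM in the flow-through and 240 to 306 FPKM in the enriched libraries, with a log2 difference of 0.03.

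Across the 79 tested members, the log2 difference ran against transcript length, with a Pearson correlation of -0.27 and a Spearman correlation of -0.40, where all tested genes had -0.04 and 0.0033. Genes are not independent replicates, these members share their libraries and their depth, and the correlation is given as a description.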
